A study of Canis lupus familiaris with 25 samples.

Results

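The genes described here were silent in non-malignant canine prostate tissue and were transcribed in most prostate tumours. They were selected on the measured values. For each sample, CPM is the count of an ID divided by the sum of all gene counts except those of KLK2 and multiplied by 1000000. KLK2 encodes a secreted kallikrein that alone took 15.7% to 48.2% of the gene counts in non-malignant tissue. Of 32220 Ensembl IDs, 13644 had a CPM under 0.5 in each of the 9 non-malignant tissues. The 100 of these with the highest median CPM over the 9 malignant tissues form the list, and rank 1 has the highest median. No gene names stand beside the IDs in the files, and the table of gene names used matched 0 of the IDs. Members are therefore given by rank, with the IDs of 4 of them, and their functions were not analysed here.

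A carcinoma can switch on genes that its tissue of origin does not use, such as genes of other epithelia, of the embryo or of the germ line. The luminal cells of a normal prostate make large amounts of a few secreted proteins under androgen control, and canine prostate carcinoma is often found in neutered dogs with little androgen. A transcript with almost no reads in normal tissue has little background, so a tumour's share in a mixed sample can be seen even at a low level. In bulk samples, fewer cells of a type and less RNA per cell cannot be told apart.

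RNA-Seq counts of 25 samples from male dogs were used. The 9 malignant tissues (PT-1 to PT-9) were prostate carcinomas by histopathology, from dogs of 8 to 12 years, of which 3 were intact (PT-1, PT-4 and PT-8) and 6 neutered. The 9 tissues diagnosed as non-malignant, PT-10 to PT-18, came from intact dogs of 1 to 16 years. Tissue was taken after death. Aspirates of prostate cells (US-FNA samples) were taken through a fine needle guided by ultrasound, in life per the labels, and diagnosed by cytology. Of these, 5 were non-malignant and came from intact dogs of 4 to 10 years (US-40, US-32, US-15, US-13 and US-7). The 2 malignant US-FNA samples came from neutered dogs of 9 years (US-4) and 10 years (US-3). In the dog of US-3 the aspiration was also repeated just after euthanasia. The study lists US-3 below another aspirate of this dog, so US-3 may be the repeat, but the sources used here do not state it. Diagnosis and neutering therefore cannot be told apart among the US-FNA samples. Non-malignant samples were normal to hyperplastic, and dogs differed in breed. The sum of gene counts was lowest in US-13, at 3355926, and highest in PT-12, at 6594032.

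The labels were checked with genes known by ID, none of which is a member. KLK4, a kallikrein of the prostate epithelium, had 220.1 to 583 CPM in non-malignant tissue, with a median of 442, and 0.169 to 6.02 CPM in malignant tissue. It had 275 to 592 CPM in non-malignant US-FNA samples, and 0.504 and 1.48 CPM in the malignant ones. MKI67, a gene of dividing cells, had 0 to 4.68 CPM in non-malignant and 17.1 to 519 CPM in malignant tissue. Its level was 0.737 to 5.26 CPM in non-malignant US-FNA samples and 47.6 and 61.3 CPM in the malignant ones. The groups did not overlap for either gene, and each sample lay with the samples of its labelled diagnosis. The study had already reported both genes as changed in the malignant samples of this series, so the check is not independent of its results.

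At these depths, silence meant at most 1 count. In non-malignant tissue 0.5 CPM corresponded to between 1.38 and 1.91 counts, so a member could have 0 or 1 count in a library. No count at all was seen in any of the 9 tissues for 44 members, and no member had more than 4 counts over all 9. The highest CPM of a member in a non-malignant tissue was 0.363, which is 1 count in PT-18. The summed counts of all 100 members were 2 to 19 per non-malignant tissue, and 7795 to 58519 per malignant tissue. With 3 counts taken as the smallest detectable number, a level of up to 0.786 to 1.09 CPM, depending on the library, could not be told from 0 in these tissues. This floor covers counting error only.

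The limits of the list were close to other IDs. The medians in malignant tissue of ranks 99 and 100 were both 2.02 CPM, and the next IDs outside had 2.02, 2.01 and 1.98 CPM. On the side of the silence limit, 12442 IDs had a median in malignant tissue at least as high as that of rank 100, and 75 of them had their highest non-malignant tissue between 0.5 and 0.75 CPM. A second count in 1 library was thus enough to keep an ID out. Of the 13644 silent IDs, 292 had a median of at least 0.5 CPM in malignant tissue, and the list takes the top 100 of these.

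The members' medians in malignant tissue ran from 269 CPM at rank 1 to 2.02 CPM at rank 100, with a median of 4.13 CPM. CPM does not account for transcript length, so the ranks order counts and not molecules. Ranks 1 to 10 had medians of 20.1 CPM or more, ranks 11 to 20 of 9.61 to 17.5 CPM, and ranks 51 to 100 of 2.02 to 4.12 CPM. Most of the list was therefore made of weakly transcribed genes, and 61 members had a median under 5 CPM.

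A sample was said to express a member at 0.5 CPM or more, which took at least 3 counts in each malignant tissue. Of the 100 members, 27 were expressed in all 9 tumours, 25 in 8, 27 in 7, 17 in 6 and 4 in 5. A median at the level of the list needs 5 tumours, so the lower end of this distribution is fixed by the choice of members. At a limit of 1 CPM, 13 members were expressed in all 9 tumours. At least 1 tumour had 0 counts for 52 of the members.

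**Figure D1:**
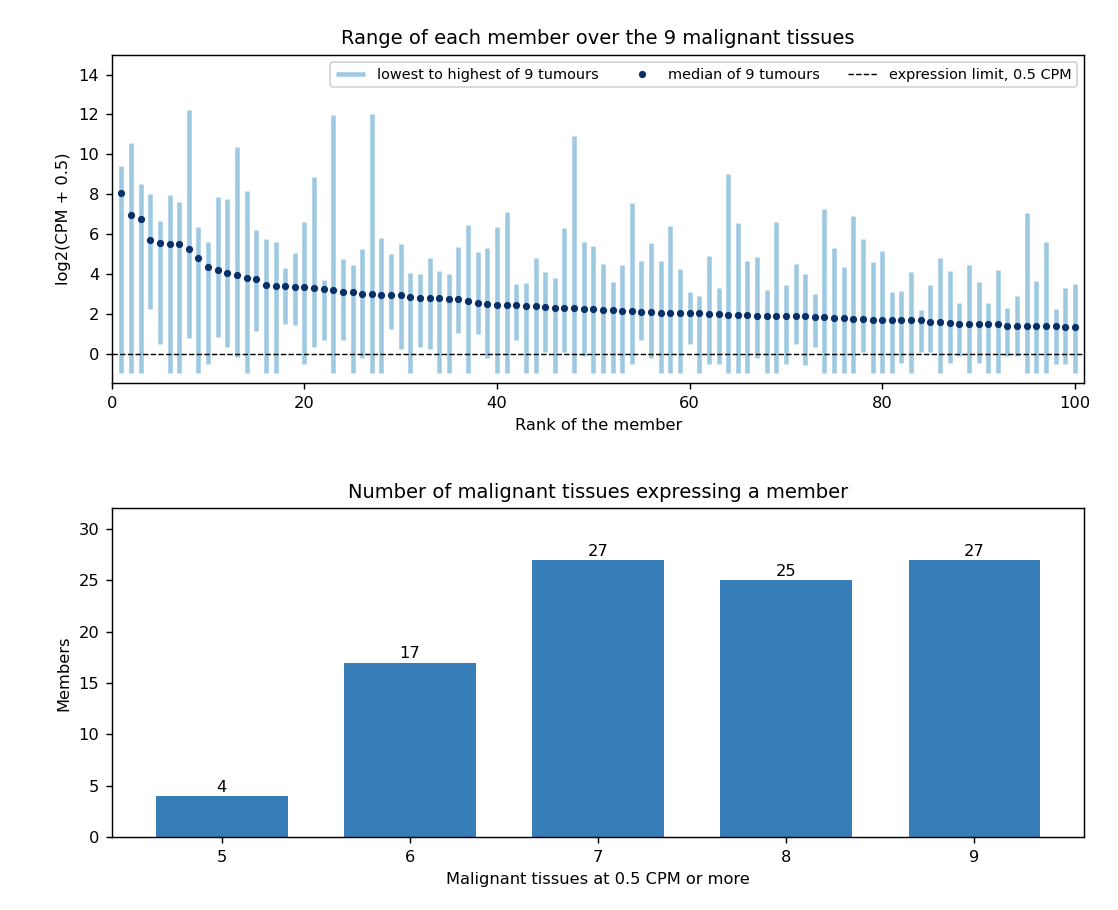
The upper panel gives, for each member by rank, the median (point) and the lowest to highest value (line) of log2(CPM + 0.5) over the 9 malignant tissues, with a dashed line at 0.5 CPM. The lower panel counts the members by the number of malignant tissues expressing them, from 4 members in 5 tumours to 27 in all 9.

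Levels of a single member differed widely between tumours. The tumour with the highest level held a median of 37.2% of a member's CPM summed over the 9 tumours, and more than 50% for 26 members. In 29 members the highest tumour was at least 10 times the median, and in 5 members at least 100 times. The tumour with the highest level was PT-1 for 22 members, PT-7 for 22, PT-5 for 14, PT-6 for 13, PT-3 for 11, PT-8 for 8, PT-2 for 4, PT-4 for 4 and PT-9 for 2. No single tumour made the list, and each of the 9 was the highest for some members.

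**Figure D2:**
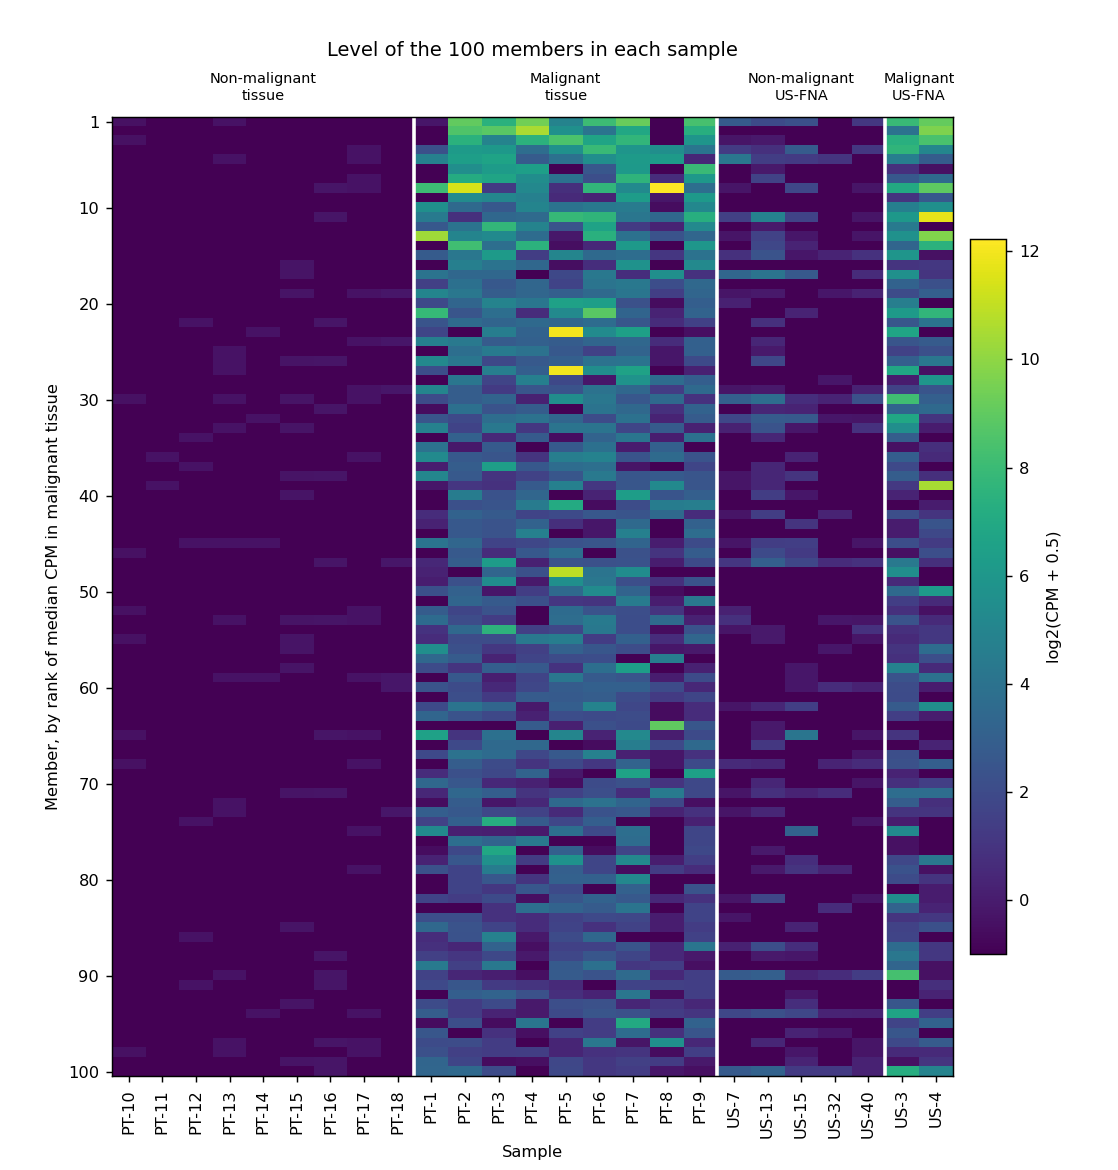
Colour gives log2(CPM + 0.5) of each member (rows, by rank) in each of the 25 samples (columns, by group). Non-malignant tissue is uniformly dark because it chose the members, single bright cells mark members that were high in 1 or 2 samples, and the malignant US-FNA samples are brighter than the non-malignant ones.

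Members peaking in single tumours were chosen for description after their values were seen. Rank 8 had a lowest, median and highest level of 1.20, 37.9 and 4793 CPM over the 9 tumours, with the highest in PT-8. Rank 13 had 0.401, 15 and 1301 CPM, with the highest in PT-1. ENSCAFG00000012561, at rank 64, had 0, 3.37 and 512 CPM, with the highest in PT-8. For these members the mean is set by 1 or 2 tumours, and the median says more about the group.

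Ranks 23, 27 and 48 moved side by side. Rank 23 had 4053 CPM in PT-5, 89.5 in PT-7, 41.5 in PT-6, 23.9 in PT-3, 8.46 in PT-4 and 2.88 in PT-1. Rank 27 had 4082, 98.6, 44.7, 24.5, 7.37 and 3.96 CPM in the same tumours, and rank 48 had 1921, 42.8, 16.3, 9.41, 4.34 and 0.719 CPM. In PT-2 and PT-8 none of them had a count, and in PT-9 they had at most 0.674 CPM. The order of the tumours was the same for all 3. Their values in the malignant US-FNA samples were also alike, at 104, 116 and 45.4 CPM in US-3 and 0, 0.247 and 0 CPM in US-4, and no non-malignant US-FNA sample had a count. Whether they share sequence or position was not tested, and reads of near-identical genes could be split between IDs.

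The number of members expressed per tumour was 69 in PT-1, 93 in PT-2, 95 in PT-3, 78 in PT-4, 87 in PT-5, 89 in PT-6, 94 in PT-7, 62 in PT-8 and 87 in PT-9. The 3 intact dogs had the lowest numbers, 62 to 78, and the 6 neutered dogs had 87 to 95, without overlap. The median over 9 tumours rests on 6 neutered dogs, so the choice of members favours this order. In 6 of 8 lists made with other limits, denominators, tumours or rankings the intact and neutered dogs overlapped, as with members silent under 1 CPM (73 to 97 against 90 to 99). They stayed apart with members silent under 0.25 CPM (51 to 67 against 77 to 89). They also did, by 1 member, when intact and neutered dogs had equal weight in the ranking (66 to 80 against 81 to 91), an alternative chosen after seeing the data. Over all 13644 silent IDs the intact dogs had 527 (PT-1), 253 (PT-4) and 436 (PT-8) at 0.5 CPM or more, and the neutered dogs had 343 to 504, which overlap. Summed over the members, the intact dogs had 2574, 3271 and 5786 CPM and the neutered dogs 1751 to 11735 CPM.

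Part of the lower number in PT-1 and PT-8 was shared. Both tumours were under 0.5 CPM for 17 members, the most of the 36 pairs of tumours, and the next pair shared 10. PT-1 and PT-8 also expressed the fewest members, 69 and 62, which favours a high shared number, and chance sharing was not tested. The other 7 tumours all expressed 7 of the 17 members, which were ranks 1, 2, 3, 9, 25, 68 and 92. ENSCAFG00000010206, at rank 1, had 0.360 CPM in PT-1 and 0 in PT-8, against 687 CPM in PT-4, the third intact dog, and 30.1 to 598 CPM in the 6 neutered dogs. ENSCAFG00000001281, at rank 2, had 0 counts in PT-1 and PT-8, 1492 CPM in PT-4 and 16.5 to 455 CPM in the neutered dogs. Rank 3 likewise had 0 counts in PT-1 and PT-8, 178 CPM in PT-4 and 29.7 to 361 CPM in the neutered dogs. Ranks 1, 2 and 3 were thus under 0.5 CPM in 2 of 9 tumours, both from intact dogs, while the other intact dog was among those with the most.

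**Figure D3:**
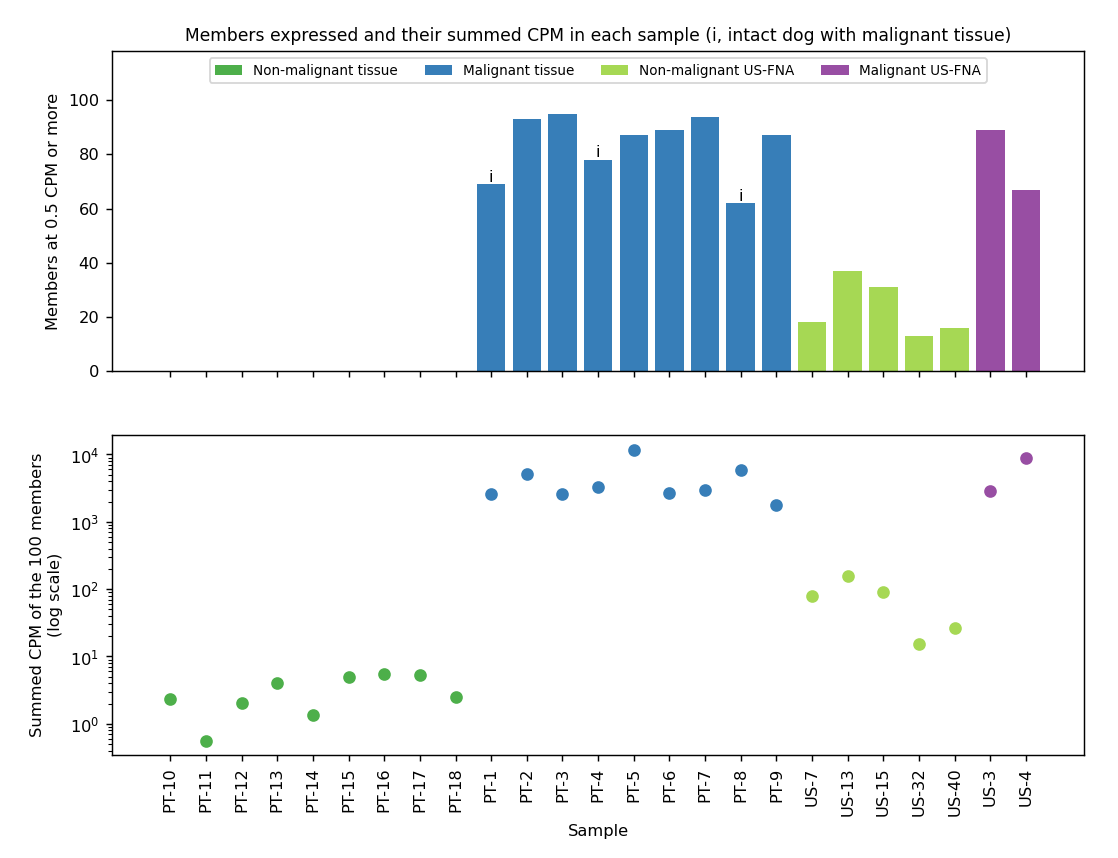
The upper panel gives the number of the 100 members at 0.5 CPM or more in each sample, with an i over the intact dogs among the malignant tissues, and the lower panel gives their summed CPM on a log axis. Malignant tissues express 62 to 95 members, malignant US-FNA samples 67 and 89, non-malignant US-FNA samples 13 to 37, and non-malignant tissues 0 by the choice of members.

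Neutered (n = 6) and intact (n = 3) dogs with malignant tissue were compared over 15249 of the 15296 IDs that passed the filter on low counts, those with a count in these tumours. All 100 members were among them. The same tumours chose the members, with 6 of the 9 from neutered dogs, so the counts below are a description and not a test of the members. The quasi-likelihood test of edgeR gave 0 IDs and 0 members with a false discovery rate (FDR) under 0.05. At an unadjusted p under 0.05, 13 members were higher and 1 lower in neutered dogs, beside 2.31% and 2.99% of all IDs tested. These counts depended on single dogs. Without PT-4, 31 members were higher and 2 lower, beside 5.43% and 5.94% of all IDs. Without PT-8, 7 were higher and 2 lower, beside 1.93% and 3.18%. Without any other dog 10 to 16 were higher, beside 1.94% to 3.01%, and 1 to 3 lower, beside 2.22% to 3.74%. DESeq2 called 3 members higher and 0 lower, beside 0.0963% and 0.018% of the IDs to which it gave an adjusted p. With the equally weighted ranking, 10 members were higher and 8 lower at an unadjusted p under 0.05.

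Ranks 15, 49 and 78 are the members called by DESeq2, and their values are given as a description. Rank 49 had 0.434, 0.540 and 1.29 CPM in the intact dogs, and a lowest, median and highest level of 4.05, 11.7 and 47.9 CPM in the neutered dogs. Rank 15 had 1.66, 2.17 and 6.47 CPM in the intact dogs and 11.0, 16.8 and 72.8 CPM in the neutered dogs. Rank 78 had 0.552, 0.719 and 1.95 CPM in the intact dogs and 2.25, 20.4 and 53.1 CPM in the neutered dogs. The groups did not overlap for these members, which were picked for this difference in tumours that also chose the list. Among all members, 7 had every neutered dog above every intact dog, beside 0.833% of IDs tested. The reverse held for 0 members, beside 0.675% of IDs tested.

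The US-FNA samples did not enter the choice, and they asked whether the members also separate malignant from non-malignant aspirates. US-4 expressed 67 and US-3 89 of the members. The non-malignant samples expressed 37 (US-13), 18 (US-7), 31 (US-15), 13 (US-32) and 16 (US-40). The lowest malignant sample was above the highest non-malignant one. In non-malignant US-FNA samples 0.5 CPM took only 2 counts, and with at least 3 counts the numbers were 67 and 85 against 7 to 26. The members' summed CPM was 8836 in US-4 and 2836 in US-3, within the range of the tumours, and 15.5 to 155 in the non-malignant samples.

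The number of all silent IDs expressed did not separate malignant from non-malignant aspirates. Over all 13644 silent IDs, 493 were at 0.5 CPM or more in US-4 and 833 in US-3. The highest number, 1288, was in the non-malignant US-13, the sample with the fewest gene counts, followed by 643 in US-15, 284 in US-7, 224 in US-32 and 161 in US-40. The groups overlapped for all silent IDs and were apart for the members. The groups were also apart for the IDs at ranks 101 to 200, with 47 in US-4, 80 in US-3 and 10 to 31 in the non-malignant samples.

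Malignant (n = 2) and non-malignant (n = 5) US-FNA samples were then compared with edgeR over 15232 IDs. All 100 members had passed the filter, which was run over all 25 samples, and could pass through the tumours. At an FDR under 0.05, 56 of the 100 members were higher in malignant samples, beside 16.5% of all IDs tested. None was lower, beside 12% of all IDs, and none was lower at an unadjusted p under 0.05 or by DESeq2. The choice of silent IDs left little room for a lower call, since 43 members were expressed in no non-malignant US-FNA sample, so nothing is read from this 0. At an unadjusted p under 0.05, 69 members were higher, beside 24% of all IDs. DESeq2 called 45 of the 64 members to which it gave an adjusted p, beside 19.6% of IDs, and edgeR had called all 45. At an FDR under 0.00001 DESeq2 called 9 members, beside 3.52% of IDs, and edgeR called 0, beside 0%. Both malignant samples were above all 5 non-malignant ones for 51 members, beside 15.8% of all IDs, and below all 5 for 0 members, beside 24.4% of all IDs. A member with 0 counts in any non-malignant US-FNA sample could not be below all of them.

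Fitted log2 fold changes were positive for 97 of the 100 members, with a median of 4.44, against 0.13 over all IDs tested. Of the members, 26 had 0 counts in all 5 non-malignant samples, which left little room for a negative value. With US-3 left out, 72 of the 93 members tested were positive. Fold changes against 0 counts depend on the fit, and 22 members had 0 counts in all 5 non-malignant samples while exceeding 3 counts in the malignant ones. With these set to the lower bound given by 3 counts over the 5 non-malignant libraries (0.219 CPM), and without the 8 members that had at most 3 counts in both groups, the median was 4.32 over 92 members. The corresponding median was 0.13 over 14998 of all IDs.

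**Figure D4:**
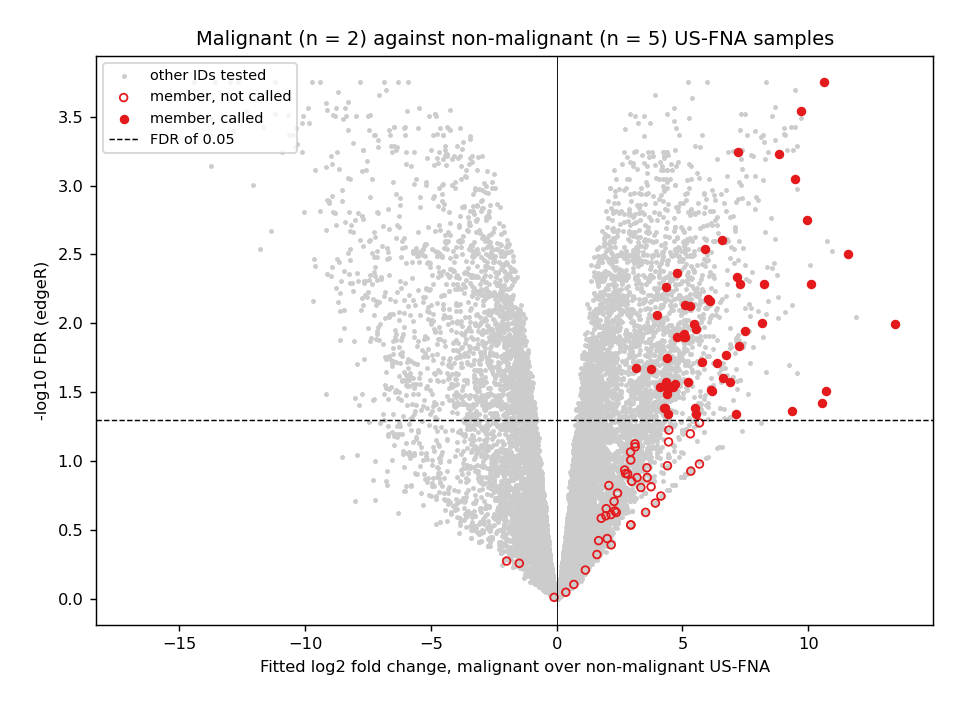
Each point is an ID tested, with the fitted log2 fold change of malignant over non-malignant US-FNA samples on the x axis and -log10 of the edgeR FDR on the y axis. Of the members (red), 56 lie above the dashed line at an FDR of 0.05 with a positive change (filled), and 44 were not called (open).

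ENSCAFG00000010206 (rank 1) had 557 CPM in US-4 and 249 CPM in US-3. In the non-malignant samples it had 3.39 (US-13), 6.25 (US-7), 4.16 (US-15), 0 (US-32) and 1.70 CPM (US-40), or 3.1 ± 2.38 CPM (SD, n = 5). It was present at a low level in 4 of 5 non-malignant aspirates, and both malignant samples were far above them. It rose by a log2 fold change of 7.22 (SE 0.77, edgeR FDR 0.000568), higher in 2 of 2 malignant samples.

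ENSCAFG00000001281 (rank 2) had 826 CPM in US-4, 15.1 CPM in US-3 and 0 counts in all 5 non-malignant US-FNA samples, as in all 9 non-malignant tissues. The groups did not overlap, but the malignant samples differed widely. Against 3 counts over the 5 non-malignant libraries, US-4 was at least 3769-fold and US-3 at least 69.0-fold higher (edgeR FDR 0.0100 for the group). The lowest FDR of any member, 0.000177, was that of rank 3, with 350 CPM in US-4, 160 CPM in US-3 and 0 to 0.423 CPM in the non-malignant samples.

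The members with the most negative fitted fold changes did not pass the test. ENSCAFG00000016447 (rank 65) had 0 CPM in US-4, 1.51 CPM in US-3, 17.4 CPM in US-15, 0.423 in US-13, 0.341 in US-40 and 0 in US-7 and US-32. Only US-15 was high. The log2 fold change was -1.99 (SE 2.23, edgeR FDR 0.531), and without US-15 it was 2.09 (edgeR FDR 0.393). In malignant tissue this member ranged from 0 to 93.5 CPM with a median of 3.37. ENSCAFG00000012561 (rank 64) had a single count, in US-13, over all 7 US-FNA samples, so no fold is given.

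**Figure D5:**
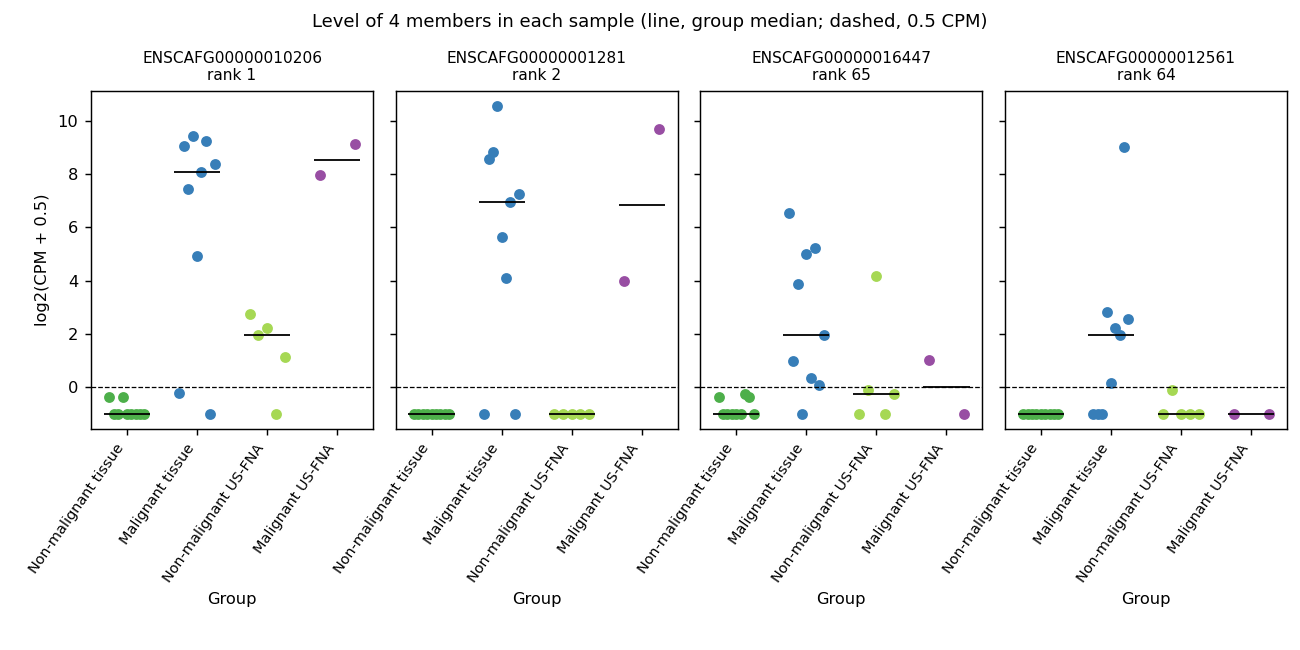
Points give log2(CPM + 0.5) of 4 members in each sample by group, with a line at the group median and a dashed line at 0.5 CPM. The members of ranks 1 and 2 are near 0 in PT-1 and PT-8 and high in both malignant US-FNA samples, while those of ranks 65 and 64 are low in them.

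The 2 malignant aspirates differed in which members they held. Both expressed 61 members, US-3 alone 28, US-4 alone 6, and neither 5. Of the 100 members, 83 lay within the range of the 9 tumours in US-4, 10 below every tumour and 7 above. In US-3, 89 lay within, 1 below and 10 above. Rank 39 had 1422 CPM in US-4, 1.76 CPM in US-3 and at most 38.3 CPM in a tumour. Rank 11 had 3424 CPM in US-4 and 65.8 CPM in US-3, against 1.25 to 230 CPM in the tumours and 0 to 28.4 CPM in the non-malignant US-FNA samples. Both aspirates thus held members at levels no tumour of the series reached.

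The calls rest on these 2 malignant libraries. For US-3 the study obtained no RNA integrity number and accepted the sample on the trace of its RNA (electropherogram). Whether RNA quality affected the members was not tested. Without US-3, fitted fold changes were positive for 72 of the 93 members tested. Without US-4, they were positive for 92 of the 97 tested. The lone malignant sample was then assumed to vary like the other group. Of the 56 members called with both malignant samples, 12 overlapped between the groups, and in 8 of those US-4 was under 0.5 CPM.

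Among classes by number of tumours, members expressed in all 9 had the highest share of calls. Of the 27 members expressed in 9 tumours, 19 were called higher in malignant US-FNA samples, against 12 of 25 in 8 tumours, 15 of 27 in 7, 9 of 17 in 6 and 1 of 4 in 5. By rank, 17 of ranks 1 to 20 were called, 17 of the 30 at ranks 21 to 50 and 22 of the 50 at ranks 51 to 100. Of the 93 IDs tested at ranks 101 to 200, 32 were called higher, beside the 16.5% of all IDs tested. These shares are a description, and ranks 51 to 100 had medians of only 2.02 to 4.12 CPM in malignant tissue.

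Some members silent in non-malignant tissue were not silent in non-malignant aspirates. Of the 100, 43 were expressed in no non-malignant US-FNA sample and 31 in 1, whereas 16 were expressed in at least 3 of 5. Ranks 30, 47, 90, 94 and 100 were expressed in all 5. Rank 90 had 7.62 (US-13), 6.57 (US-7), 0.757 (US-15), 1.11 (US-32) and 2.04 CPM (US-40), with 325 CPM in US-3, 0.247 CPM in US-4 and at most 11.5 CPM in a tumour. Of the 16, 7 had their highest level of all 25 samples in US-3, and 12 were called higher in malignant US-FNA samples, as were 44 of the other 84 members and 16.5% of all IDs. The call on these members is therefore not a contrast with silence.

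Globin transcripts, which mark blood, were higher in aspirates than in tissue. All 5 of the globin genes measured (HBA1, HBA2, HBD, HBB and haemoglobin subunit mu) were expressed in each US-FNA sample, and HBB was the most abundant in each. Their summed CPM was 39787 in US-3, 29753 in US-4, 28282 in US-13, 11507 in US-7, 8189 in US-15, 5482 in US-32 and 408 in US-40. Non-malignant tissue had 0.545 to 83.7 CPM and malignant tissue 1.10 to 142 CPM. US-3 and US-13 had the most members and the most globin of their groups, but US-15, with 31 members, had less globin than US-7, with 18, and US-40, with 16, less than US-32, with 13. Both malignant samples had more globin than every non-malignant one. By the study's scoring of visible blood, US-3, US-15 and US-40 were strongly, US-7 and US-32 moderately, and US-4 and US-13 weakly contaminated. The order by globin was different, with US-4 and US-13 next after US-3 and US-40 lowest. The part of blood cells in the members' levels was not tested.

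US-3 was compared with each tumour. Tissue of its dog was also collected, but the study's overview counts the sequenced tumours among dogs sampled only after death, apart from those aspirated in life. Over the members, the median absolute difference in log2(CPM + 0.5) between US-3 and a tumour was lowest for PT-6, at 1.13, and 1.53 to 2.27 for the other 8. Over all IDs past the filter with a count in tissue PT-6 was hardly apart, at 0.784 against 0.792 for PT-5 and 0.824 for PT-3. PT-6 and US-3 agreed on whether a member was expressed for 92 of 100 members, PT-3 and US-3 for 88 and PT-2 and US-3 for 86. With members chosen without PT-6, 87 were shared with the list. Of the 100 members so chosen, 52 were called higher in malignant US-FNA samples, beside 16.5% of all IDs tested.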

How the data were processed

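Libraries made with a kit that does not mark strand were sequenced on an Illumina NextSeq500. The authors trimmed the reads (Trimmomatic 0.32 per the submitters' processing notes), mapped them to CanFam3.1 with TopHat2 and the Ensembl release 85 annotation, and counted them with htseq-count at default settings. These take the strand of a read into account although the kit does not mark it, and the effect on the counts, on silence and on the share of unassigned alignments was not tested. They deposited raw counts per Ensembl ID for each sample, without normalisation. The 5 tallies of unassigned alignments were left out of all sums, of which those on no feature took 58.8% to 70.3% of a sample's alignments. The study describes single-read sequencing but also gives mapped reads as pairs, and the names of the deposited counts speak of proper pairs, so a count may be a read or a pair.

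CPM and the member list were computed from the counts in Python 3.11.15 with pandas 2.3.3. Tests used edgeR 4.0.16 in R 4.3.3 (TMM normalisation, quasi-likelihood test, Benjamini-Hochberg adjustment over all IDs tested, FDR under 0.05) on the 2 groups compared. IDs were first filtered with filterByExpr over the 4 groups of all 25 samples (minimum count 10, minimum total 15). DESeq2 1.42.0 was the other tool. SE is the absolute log2 fold change over the square root of F. The procedure was tested on simulated counts. Malignant against non-malignant tissue was also fitted, but its calls are not reported, since it chose the members. No 2 samples of a group agreed within sampling noise, and samples were treated as independent dogs.

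The IDs printed are the 2 with the highest median in malignant tissue among members called higher in malignant US-FNA samples, and the 2 with the most negative fitted fold change, since none was called lower. Other members described by rank were chosen after their values were seen. The members and lists were chosen with earlier results of these data known. Alternatives were DESeq2 and its size factors, filters, a fit of all 4 groups, KLK2 or globin genes left out, stricter thresholds, each sample left out, and other limits, denominators and rankings for the list. A further marker fixed for the check of the labels is not reported here.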

Additional observations from a re-analysis of the deposited data

Results flagged for a closer look

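In 32 groups of 5 or 9 samples, the summaries and the described members were checked for a sample far from the others of its group, which chance gives in about 1 of 20 groups. ENSCAFG00000016447 (rank 65) had 17.4 CPM in US-15, far above the other non-malignant US-FNA samples. Rank 8 had 3.03 CPM and rank 78 had 1.14 CPM in the same sample, where the others were at or near 0. ENSCAFG00000012561 (rank 64) had 512 CPM in PT-8, far above the other malignant tissues. US-15 thus stood apart for 3 members. For rank 78 all other non-malignant US-FNA samples had 0 counts, so any count would have stood apart, and 1.14 CPM was 3 counts.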

How the results depend on the processing

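The number of members called higher in malignant US-FNA samples (56) changed by over 1.5 times with the low-count filter run over the US-FNA samples alone, where 35 of the 41 members tested were called, beside 18.6% of all IDs; fewer members were tested, and those could pass through the malignant samples alone. At an FDR under 0.00001 it was 0 with edgeR, which called 0% of all IDs, and 9 with DESeq2, beside 3.52%. Leaving out each US-FNA sample in turn gave 34 to 49, beside 11.2% to 15.5%. For neutered against intact dogs, DESeq2 gave 3 members higher, beside 0.0963% of IDs, and leaving out each dog gave 0 to 0 in edgeR. In these cases the cause was not tested.

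The make-up of the list depended on its limits. Of its 100 members, 44 were shared with a list silent under 0.25 CPM, 34 with one silent under 1 CPM, 47 with KLK2 kept in the denominator, 54 with TMM library sizes and, in a ranking chosen after seeing the data, 56 with the median over the 3 intact dogs. Members expressed in all tumours (27) numbered 13 at 1 CPM, 10 in the list silent under 0.25 CPM, 55 in that under 1 CPM, 55 with KLK2 kept and 47 with TMM library sizes. A looser silence limit admits more strongly transcribed IDs. Of 40 recomputed fold changes of ranks 1, 2 and 65, 39 kept their direction and their side of the threshold. That of rank 65, not called, turned to 2.09 without US-15, its only high non-malignant sample, and ranged from -6.44 to 2.09 with each sample left out in turn. No paired analysis was possible because replicate numbers only name samples and pair no dogs.

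Limits: 2 malignant aspirates, both from neutered dogs, and 1 or 2 counts decide silence. Without strand, reads of a gene and an antisense partner cannot be told apart.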
